A study of Mustela putorius furo with 10 samples.

Results

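The genes described here are 47 genes of blood monocytes and phagocytes, chosen as a list of symbols, and their levels were compared in peripheral blood mononuclear cells (PBMC) of cold-exposed and control ferrets. Each symbol was matched through the RefSeq name of the accession that a probe was designed on. A target sequence was found for 32 of the 47 genes, and all 32 passed the filter of a Cy3 signal well above background on at least 4 of 10 arrays, among 26303 genes that passed it in all. The 15 genes with no match were FCN1, FPR1, MARCO, MSR1, SCARF1, FCGR1A, TYROBP, CLEC4A, ITGAM, ITGAX, LGALS3, CYBB, CYBA, NCF1 and CEBPA, and apart from SCARF1, named further below, they are not analysed here. Of the 45328 target sequences of the array, 21104 could be named, so that other listed genes may lie on the array under an accession only.

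All animals were male ferrets (Mustela putorius furo) of 3 months of age with free access to food and water. The control group (n = 6 arrays) was kept at 22 °C and the cold group (n = 4 arrays) at 4 °C for 1 week, and the labels give individual housing for the cold animals without saying how the controls were housed. PBMC were prepared on a Ficoll gradient, and 1 array was hybridised per ferret, with the RNA of the ferret in Cy3 and a common pool of RNA from PBMC and other ferret tissues in Cy5. Every value below is a log2 ratio of Cy3 to Cy5, so that 0 means the level of the pool, and a log2 change is the cold mean minus the control mean.

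Monocytes are circulating phagocytes that leave the blood to become macrophages. They sense microbes through CD14 and the Toll-like receptors, take up particles through scavenger and Fc receptors, kill with the oxygen radicals of the NADPH oxidase, and depend on the growth factor receptor CSF1R and the transcription factor SPI1. Ficoll-purified PBMC contain them beside lymphocytes, and the separation removes most mature neutrophils, with which monocytes share many of these genes. In a mixed sample, fewer or more cells of a type and less or more RNA per cell cannot be told apart.

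The monocyte markers CD14, CSF1R, LYZ and VCAN gave a Cy3 signal well above background on all 10 arrays, as did all measured members except CCR2, which did on 9. The control mean lay above the pool for 26 members and below it for 6, namely CD36, CX3CR1, CD163, CD68, KLF4 and TREM2. The pool was dim for some members. Its Cy5 signal was well above background on all 10 arrays for 27 members, on 5 for TREM2, and on only 1 or 2 for CSF2RA, CCR2, CD300E and CEBPB.

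Of the 32 members, 29 had a higher mean in cold and 3 a lower one, but this split became 11 higher and 21 lower when the arrays were only centred on their median, which shifted the median change of all genes to −0.43. With loess the median log2 change of the members was 0.48, against −0.01 for all genes, whose middle quartiles ran from −0.17 to 0.13 and of which 48.0% were higher in cold. With median centring the members' median was −0.38, or 0.04 above that of all genes, and 18 of the 32 members lay above the all-gene median. Each value with median centring given below is therefore to be read against −0.43 and not against 0. With Cy3 alone, quantile normalised and without the pool, 29 members were again higher (42.9% of all genes) and 3 lower, with a median of 0.44 against −0.04 for all genes.

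Monocyte and phagocyte genes were called higher in cold in 9 cases, where 5.21% of all genes were, at an unadjusted p under 0.01 in limma, which is the threshold of the methods but not their test. They were CSF2RA, CSF2RB, CD14, CD300E, SIRPA, VCAN, NCF4, KLF4 and CD86. With the methods' t-test 7 were called (4.03% of all genes), without CD14 and KLF4. The count was 3 with the scanner's processed signals (2.43% of all genes) and 1, CSF2RA, with median centring (0.817%). It was 3 with the authors' value table (1.92%), in which 22 members were higher and 10 lower with a median of 0.15. No measured member was called lower, where 3.43% of all genes were. At an unadjusted p of 0.05, 20 members were higher (12.2% of all genes) and 1 was lower (12.5%). After Benjamini-Hochberg adjustment over all genes, limma called 0 members and 0 of 26303 genes at 0.05, as did the methods' t-test, and the lowest adjusted p of a member was 0.0736. In Cy3 alone, 11 members were called higher at 0.01 (5.48% of all genes), among them 7 of the 9 and, in addition, TLR4, CD163, TREM2 and SPI1, and 2 lower (4.36%), MNDA and CX3CR1. Of these, NCF4 and CD86 also passed the adjusted threshold as higher (1.89% of all genes), with log2 changes of 0.81 (adjusted p = 0.0384) and 0.68 (adjusted p = 0.0428) in limma. CX3CR1 passed it as lower (0.924%), with −0.58 (adjusted p = 0.0466). The arrays of the groups did not overlap for 4 members. All cold arrays lay above all control arrays for SIRPA, NCF4 and CD86 (3.07% of all genes), and below them for MNDA (2.15%).

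**Figure D1:**
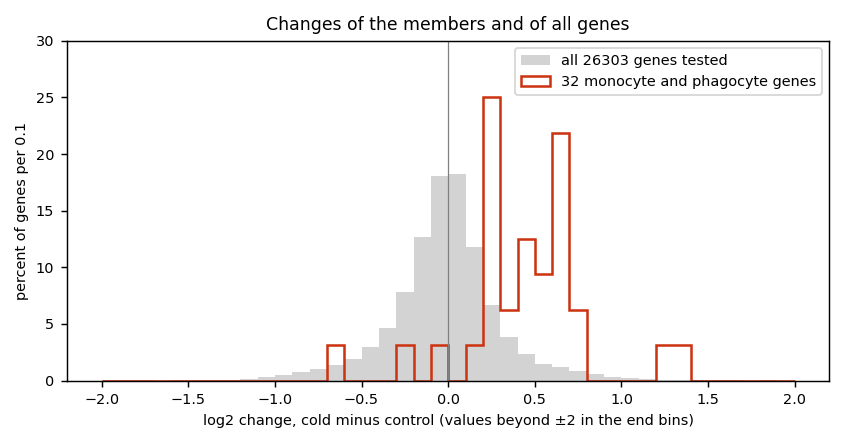
Distribution of the log2 change (cold minus control, loess-normalised log2 ratios) over all 26303 genes tested (grey) and over the 32 monocyte and phagocyte genes (red outline), as percent of genes per 0.1. The members' median is 0.48 and that of all genes −0.01, whereas with median centring both medians are below 0 (−0.38 and −0.43).

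The size of the difference varied between the cold animals. Relative to the control mean, the members averaged 0.35, 0.38, 0.85 and 0.20 on cold arrays 1 to 4, while the control arrays ranged from −0.13 to 0.19. The lowest cold array was thus only just above the highest control array. Cold array 3 was the highest of all 10 arrays for 23 of the 32 members, against 19.1% of all genes, and without it the members' median fell from 0.48 to 0.34 and the count of members called higher from 9 to 6, while the share of all genes called higher went from 5.21% to 3.03%. On each of cold arrays 1 to 3, 29 members lay above their control mean, and on cold array 4, 25 did. In the control group, control 5 was highest for 14 members (20.1% of all genes) and control 3 for 11 (16.9%). Controls 3 and 5 lay in position 2 of their slides, as did cold arrays 3 and 4, and the other controls lay in position 1.

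**Figure D2:**
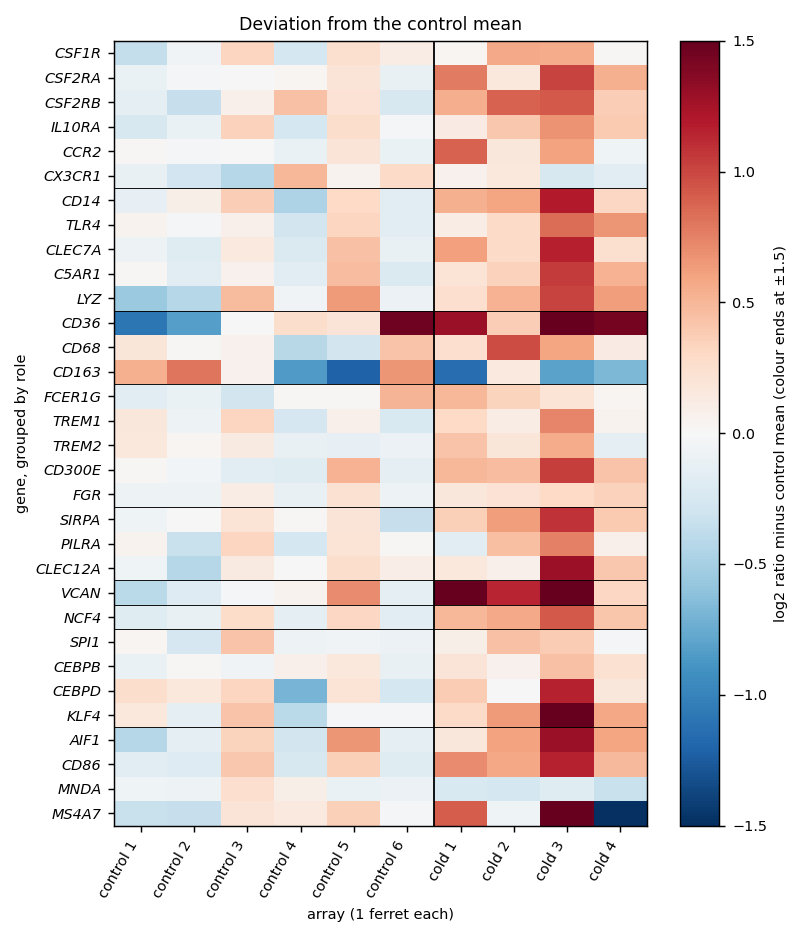
Log2 ratio minus the control mean for each of the 32 members (rows, grouped by role) on each of the 10 arrays (columns), with the colour scale ending at ±1.5. Cold array 3 carries the deepest red, with a mean over the members of 0.85 against 0.35, 0.38 and 0.20 on the other cold arrays.

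Among the receptors for growth factors, cytokines and chemokines, 5 of 6 members were higher in cold (48.0% of all genes) and 2 were called (5.21%), CSF2RA and CSF2RB. These encode the ligand-binding chain of the GM-CSF receptor and the common signalling chain that it shares with the receptors for IL-3 and IL-5. The log2 ratio of CSF2RA ran from 0.16 to 0.47 in control (median 0.26) and was 1.05, 0.43, 1.29 and 0.80 in cold. The difference was 0.62 ± 0.14 (SE), a 1.54-fold ratio of the means (limma p = 0.00124, adjusted p = 0.0736, exact permutation p = 0.00952, two-sided). Cold arrays 1, 3 and 4 lay above every control array and cold array 2 just below the highest. Since the pool was well above background for CSF2RA on 1 array only, the change in Cy3 alone is also given, 0.43 ± 0.13 (limma adjusted p = 0.0864).

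CSF2RB ran from 0.73 to 1.52 in control (median 1.05) and reached 1.62, 1.96, 2.00 and 1.45 in cold. Its log2 change was 0.68 ± 0.17 (limma p = 0.00194, adjusted p = 0.0767, exact permutation p = 0.0143), with only cold array 4 inside the control range. It was not called in Cy3 alone, where the change was 0.50, nor with the processed signals, median centring, the authors' table or the replicate number as a block. CSF1R, the receptor for the growth factor that maintains monocytes and macrophages, overlapped more. It ran from 0.99 to 1.67 in control (median 1.38), with 1.38, 1.92, 1.91 and 1.36 in cold, and the log2 change of 0.29 ± 0.17 did not pass (exact permutation p = 0.157). IL10RA, the ligand-binding chain of the receptor for the anti-inflammatory cytokine IL-10, had a change of 0.40 (limma adjusted p = 0.141). With median centring, CSF1R (−0.74) and IL10RA (−0.56) lay below the all-gene median of −0.43, and CSF2RB (−0.12) lay below 0 but above that median.

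The chemokine receptors CCR2 and CX3CR1 mark the classical and the patrolling monocytes, respectively. CCR2 was near the pool in control, from 0.11 to 0.40 (median 0.19), and 1.08, 0.38, 0.81 and 0.14 in cold. The cold arrays thus spread from inside the control range to well above it, and the change of 0.40 ± 0.16 did not pass the threshold (limma adjusted p = 0.163, exact permutation p = 0.0429). CX3CR1 lay below the pool on every array, from −1.79 to −0.87 in control (median −1.39), with −1.29, −1.20, −1.60 and −1.53 in cold. The groups overlapped fully and the log2 change of the ratio was −0.05 ± 0.17 (limma p = 0.797), whereas in Cy3 alone CX3CR1 was lower in cold, as given above, and in the authors' value table it was higher (0.33). It was measured with 2 of its 8 probes.

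The group for sensing microbes, complement and chemoattractants also holds the enzyme gene LYZ. All 5 measured members of the group were higher in cold at an unadjusted limma p under 0.05 (12.2% of all genes). CD14 was called at 0.01 (5.21%). CD14, the co-receptor that hands bacterial lipopolysaccharide to TLR4, ran from 0.44 to 1.27 in control (median 0.88) and was 1.44, 1.49, 2.10 and 1.21 in cold. The change was 0.66 ± 0.19, or 1.58-fold (limma p = 0.00623, adjusted p = 0.101, exact permutation p = 0.0143), and in Cy3 alone 0.85 (p = 0.00983). Only cold array 4 lay inside the control range, yet the call at 0.01 was lost without any of control 1, 4 or 6 or cold 1, 2 or 3, with changes from 0.48 to 0.77 over all 10 fits that left out an array. It was also lost with the processed signals, median centring, the authors' table and the methods' t-test.

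TLR4 itself had a log2 change of 0.47 ± 0.15 (exact permutation p = 0.0286), CLEC7A, the beta-glucan receptor dectin-1, 0.58 ± 0.19 (p = 0.0238), and C5AR1, the receptor for the complement fragment C5a, 0.53 ± 0.18 (p = 0.0238). The value of CLEC7A averages 4 target sequences that split, with changes of 0.24, 0.29, 0.79 and 0.83. LYZ, which encodes the secreted enzyme lysozyme, ran from 0.12 to 1.31 in control (median 0.61), with 0.93, 1.20, 1.68 and 1.30 in cold and a change of 0.60 ± 0.24 (exact permutation p = 0.0667). Only cold array 3 was outside the wide control range. With median centring, where the median of all genes was −0.43, CD14 was at −0.36, C5AR1 at −0.41 and LYZ at −0.56. TLR4 and CLEC7A stayed above 0 there.

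**Figure D3:**
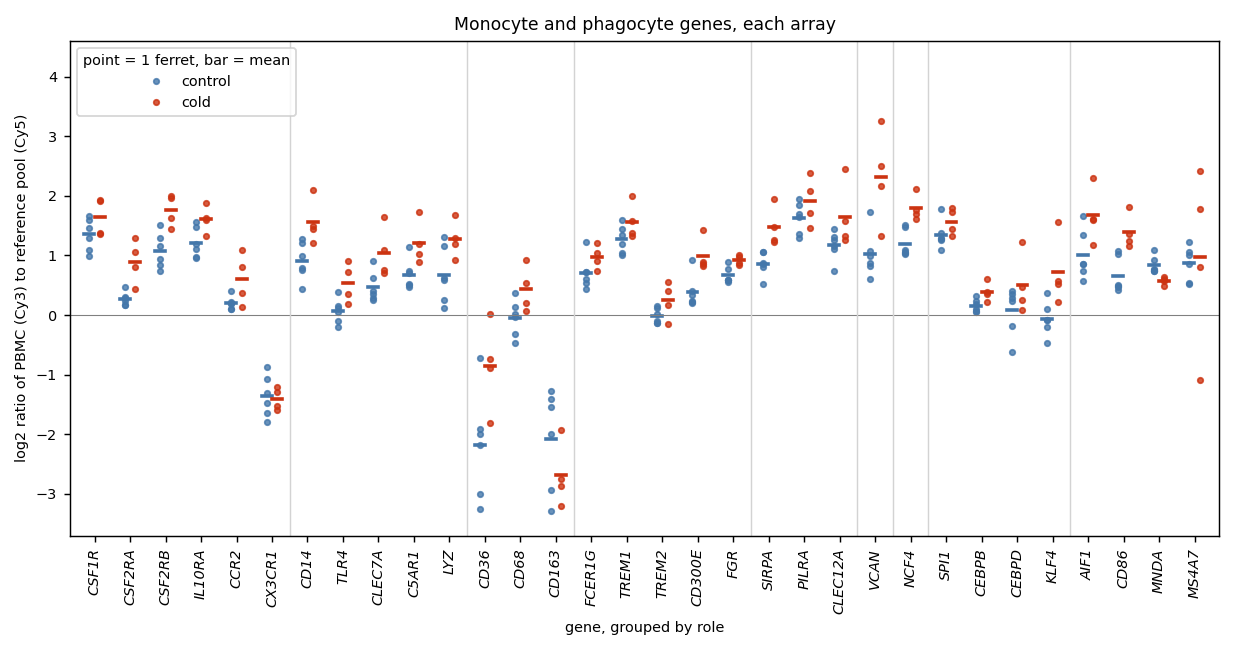
Log2 ratio of PBMC RNA (Cy3) to the reference pool (Cy5) for the 32 members, grouped by role with grey lines between the groups, with 1 point per ferret (control blue, n = 6, and cold red, n = 4) and a bar at the group mean. SIRPA, NCF4 and CD86 have all cold points above all control points and MNDA all below, while the other members overlap.

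The 3 measured scavenger receptors differed in direction, and none was called. CD36, a receptor for oxidised lipoproteins and fatty acids, had the highest change of all members. It ran from −3.25 to −0.72 in control (median −2.08), with −0.89, −1.80, 0.02 and −0.74 in cold. The change of 1.32 ± 0.47, or 2.51-fold, did not pass with this spread (limma p = 0.0166, adjusted p = 0.132, exact permutation p = 0.0524). Platelets carry CD36 too, and the 6 measured genes of a platelet marker list were all higher in cold, with a mean relative to control of −0.70 to 0.69 in the control group and 0.18 to 1.16 in cold. With median centring 5 of the 6 were higher, and the list's median was 0.15, against 0.87 with loess. Control 1 was lowest and control 6 highest of the control arrays for both CD36 and the platelet list. The part of platelets in the CD36 difference was not tested.

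CD68, a lysosomal protein of macrophages, had a change of 0.49 ± 0.19 (exact permutation p = 0.0619), which turned to −0.46 with median centring. CD163, the haemoglobin scavenger receptor, had the lowest change of all members. It ran from −3.28 to −1.27 in control (median −1.77), with −3.21, −1.92, −2.87 and −2.75 in cold, so that every cold array lay inside the control range. The log2 change of the ratio was −0.62 ± 0.41 (exact permutation p = 0.252), whereas in Cy3 alone CD163 was called higher in cold, by 0.49 ± 0.15 (limma adjusted p = 0.092).

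SCARF1, a scavenger receptor of endothelial cells and macrophages, has no RefSeq match here, but a gene table of the study ties it to a target sequence that was measured. That table lists changed genes, so SCARF1 is given as a description and stands outside all counts. Its ratio ran from −0.17 to 0.28 in control (median 0.03) and was −0.19, −0.16, −0.47 and −0.25 in cold, with only cold array 2 inside the control range. The log2 change was −0.32 ± 0.10 with loess, −0.49 in Cy3 alone and −0.88 with median centring, and it would be the only member called lower among 33.

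The 5 measured activating receptors, adaptors and kinase were all higher in cold (48.0% of all genes), by 0.26 to 0.61, and CD300E was called (5.21%). CD300E, an activating receptor of monocytes, ran from 0.20 to 0.92 in control (median 0.29) and was 0.89, 0.85, 1.43 and 0.82 in cold. The control value of 0.92 came from control 5 alone, since the next was 0.41. The change was 0.61 ± 0.16 (limma p = 0.00332, adjusted p = 0.0871, exact permutation p = 0.0238), it missed the threshold without cold array 3 (0.46, p = 0.0113) and in Cy3 alone (0.71, p = 0.0335), and the pool was well above background on 2 arrays. It was also not called with the processed signals or with median centring.

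The adaptor FCER1G, which couples Fc receptors to kinases, had a change of 0.27 (exact permutation p = 0.152) and TREM1, an amplifier of the inflammatory response, 0.30 (p = 0.124). TREM2, its lipid-sensing relative, had 0.26 (exact permutation p = 0.11) and FGR, a Src-family kinase of myeloid cells, 0.26 ± 0.09 (p = 0.019). None of these 4 was called in the ratios. In Cy3 alone TREM2 was called higher, with 0.44 ± 0.12 (limma adjusted p = 0.0689), and its ratio rests on 2 of 4 probes with changes of −0.01 and 0.52. FCER1G, TREM1 and FGR turned to −0.86, −0.68 and −0.75 with median centring, and TREM2 did not turn.

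The 3 measured inhibitory receptors were higher in cold (48.0% of all genes), and SIRPA, the receptor for the "don't eat me" ligand CD47, was called (5.21%). SIRPA ran from 0.52 to 1.06 in control (median 0.87) and was 1.22, 1.49, 1.95 and 1.25 in cold. No cold array reached down to the control range. The change was 0.61 ± 0.15, or 1.53-fold (limma p = 0.00211, adjusted p = 0.0775), and the exact permutation p was 0.00476, the smallest that 210 splits of the arrays can give. PILRA had a change of 0.28 (exact permutation p = 0.219) and CLEC12A, a C-type lectin that recognises uric acid crystals, 0.48 (p = 0.0476). All 3 lay below 0 with median centring, SIRPA at −0.29, PILRA at −0.81 and CLEC12A at −0.48, where the median of all genes was −0.43. The call of SIRPA was lost there, with the processed signals and with the authors' table.

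Versican (VCAN), a matrix proteoglycan and a strong marker of classical monocytes in human blood, was the only measured member among the integrins, adhesion and matrix genes. It ran from 0.61 to 1.73 in control (median 0.93) and was 2.51, 2.16, 3.25 and 1.32 in cold. Cold arrays 1 to 3 lay clearly above every control array and cold array 4 inside the control range. Its log2 change of 1.29 ± 0.32, or 2.45-fold, was the highest of the called members (limma p = 0.00201, adjusted p = 0.077, exact permutation p = 0.00952), and it was 1.17 in Cy3 alone (p = 0.00552). The call held in all 10 fits that left out an array, with changes from 0.98 to 1.62, and was lost with the processed signals and with median centring.

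NCF4 (p40phox), a cytosolic subunit of the phagocyte NADPH oxidase, was the only subunit on the list that was measured. It ran from 1.02 to 1.50 in control (median 1.08) and was 1.69, 1.77, 2.12 and 1.61 in cold. The groups did not overlap, and the change was 0.60 ± 0.14, or 1.51-fold (limma p = 0.00109, adjusted p = 0.0736, exact permutation p = 0.00952). It turned to −0.40 with median centring, which was close to the all-gene median of −0.43, and was not called there or with the authors' table.

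All 4 measured transcription factors had a higher mean in cold (48.0% of all genes) and KLF4 was called (5.21%). KLF4, a factor that drives monocyte differentiation, ran from −0.47 to 0.36 in control (median −0.08) and was 0.23, 0.58, 1.56 and 0.52 in cold. Only cold array 1 lay inside the control range. The change was 0.78 ± 0.24 (limma p = 0.00705, adjusted p = 0.105, exact permutation p = 0.00952) and 0.88 in Cy3 alone, but the call at 0.01 was lost without any of control 2, 4, 5 or 6 or cold 2 or 3, where the lowest change was 0.50, without cold array 3. It was also lost with median centring, the authors' table, the median over probes and the methods' t-test.

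SPI1 (PU.1), the master factor of the myeloid lineage, had a change of 0.22 ± 0.14 (exact permutation p = 0.167) in the ratios and was called higher in Cy3 alone, with 0.42 ± 0.12 (limma adjusted p = 0.0732). The inflammatory factors CEBPB and CEBPD had 0.23 ± 0.09 (exact permutation p = 0.0238) and 0.43 ± 0.25 (p = 0.21). SPI1 and CEBPD turned to −0.86 and −0.31 with median centring, where the median of all genes was −0.43.

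Of the other monocyte markers, CD86, the costimulatory ligand that activates T cells through CD28, was called (5.21% of all genes). It ran from 0.42 to 1.07 in control (median 0.49) and was 1.36, 1.24, 1.81 and 1.15 in cold. The groups did not overlap and the change was 0.73 ± 0.17, or 1.66-fold (limma p = 0.00143, adjusted p = 0.0736, exact permutation p = 0.00952), which dropped to 0.07 with median centring. CD86 was not called there, with the processed signals or with the authors' table. AIF1, an actin-binding protein of macrophages, had a change of 0.67 ± 0.24 (exact permutation p = 0.0524), and −0.23 with median centring.

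MNDA, a nuclear antigen of myeloid cells, ran the other way. Its ratio ran from 0.73 to 1.08 in control (median 0.76) and was 0.60, 0.57, 0.65 and 0.49 in cold. All cold arrays lay below all control arrays, with a small change of −0.25 ± 0.09 (limma p = 0.0143, adjusted p = 0.127, exact permutation p = 0.00476), and in Cy3 alone it was −0.28 (p = 0.00442). MS4A7, a membrane protein of monocytes and macrophages, split the cold animals. It ran from 0.52 to 1.23 in control (median 0.93) and was 1.77, 0.80, 2.42 and −1.09 in cold, and on cold array 4 it was the lowest of all arrays with each of its 8 probes. These spread widely on that array, from −3.85 to 0.38. The change was 0.11 ± 0.53 (exact permutation p = 0.867) and turned to −0.21 in Cy3 alone.

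**Figure D4:**
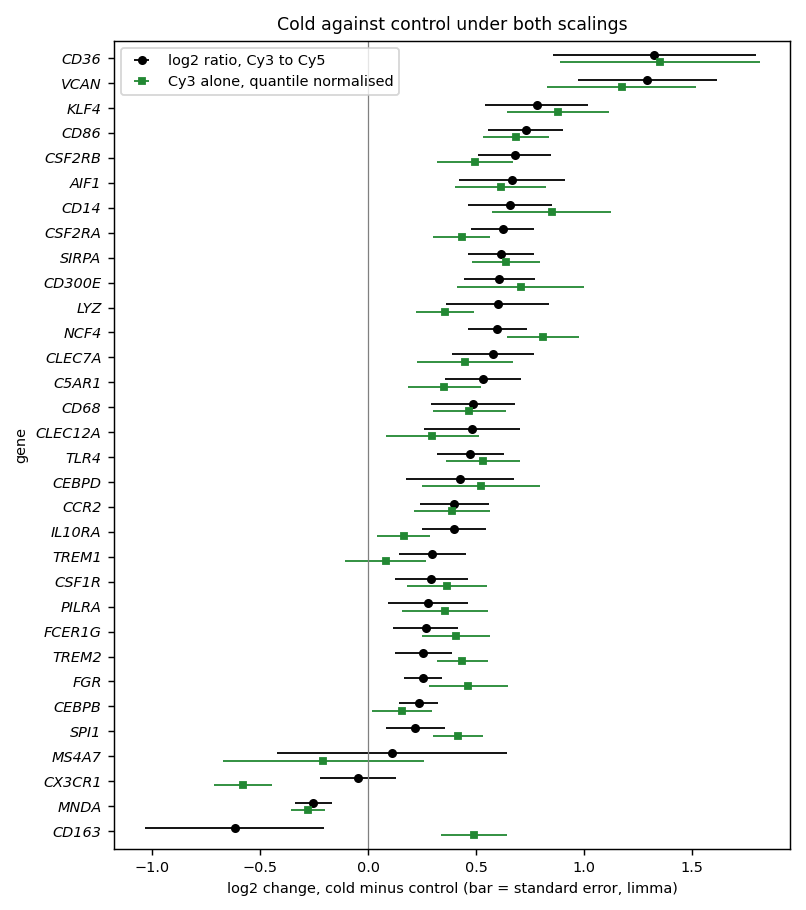
Log2 change (cold minus control) of each of the 32 members with its limma standard error, as the Cy3 to Cy5 ratio (black circles) and as Cy3 alone (green squares). In 30 of the 32 members both lie on the same side of 0, with CD163 (−0.62 and 0.49) and MS4A7 (0.11 and −0.21) as the exceptions, whereas median centring, which is not drawn, turned 18 of the ratio changes below 0. The median of all genes was −0.43 there, and 18 members, in part others, lay above it.

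Most probes pointed the same way. Of the 199 probes of the members that were kept, 184 were higher in cold and 15 lower, with loess. The 10 arrays had been placed in both positions of their slides, and within position 1 (4 control and 2 cold arrays) the members' median difference was 0.48, with 30 members higher, and within position 2 (2 control and 2 cold) 0.38, with 27 higher.

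The other genes of the same pathways, 54 listed and 29 measured, were more often higher than lower in cold (23 against 6) with loess. With median centring, which moved the median of all genes to −0.43, the split around 0 was 12 against 17. With loess, 5 were called higher (5.21% of all genes) and 0 lower (3.43%). Around TLR4, all 9 measured co-receptors, adaptors and Toll-like receptors had a higher ratio (7 in Cy3 alone and 4 with median centring), and LY96, the co-receptor MD-2 that binds lipopolysaccharide with TLR4, was called with a change of 0.66 and no overlap (limma adjusted p = 0.0736). The call of LY96 was lost with the processed signals, median centring and the authors' table. TLR2 had a change of only 0.04 (limma adjusted p = 0.717). Of the 6 measured kinases and adaptors downstream of the activating receptors, 3 were higher (4 in Cy3 alone and 1 with median centring).

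RAC2, a GTPase of the NADPH oxidase which lymphocytes also express, had a change of −0.41 (limma adjusted p = 0.25). The 7 other myeloid transcription factors all had a higher ratio in cold (5 in Cy3 alone and 4 with median centring), and MAF (0.43, limma adjusted p = 0.0974) and TFEC (0.45, adjusted p = 0.0901) were called. MAF was called in no other scaling, and its change was 0.01 with the processed signals. Among the other scalings TFEC was called only without background subtraction, with changes from 0.37 in Cy3 alone to 1.50 with the processed signals. The 2 measured receptor chains, ITGB2 and C5AR2, had changes of 0.22 and 0.39 without a call. Of the ligands of these receptors, IL34, IL10 and C5 were measured and none was called.

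Markers of other blood cells differed along with the members. All 9 measured genes of a mature neutrophil list (of 16 listed) had a higher ratio in cold with a median of 0.81, and 4 of them were called higher (5.21% of all genes). With median centring the list's median was −0.01, or 0.41 above the all-gene median of −0.43. Their mean relative to control was −0.37 to 0.24 in the control group and 0.59 to 0.89 in cold. S100A8 and S100A9, the calprotectin subunits, which monocytes express as well, had changes of 1.10 and 1.15 without overlap (limma adjusted p = 0.0952 and adjusted p = 0.0736), against −0.01 and 0.08 with median centring. The other called genes were LCN2, a protein of neutrophil granules (0.67 without overlap, limma adjusted p = 0.0576, and 0.74 with median centring), and MMP25, a membrane-bound protease of neutrophils (0.82, adjusted p = 0.0736, and 0.27 with median centring). Neither was called with median centring or with the processed signals (0.29 and 0.50). MMP25 was also not called in Cy3 alone (0.61) or with the authors' table (0.64). CSF3R, the G-CSF receptor, overlapped (0.40, limma adjusted p = 0.48, and −0.48 with median centring). Both measured genes of a granulocyte precursor list (of 8) were higher, and MPO, the myeloperoxidase of their granules, had a change of 1.41 (limma adjusted p = 0.0576, and 1.24 with median centring).

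T cell markers ran the opposite way, with 8 of 9 measured genes lower (of 12 listed) and a median of −0.56, and 1 of them was called lower (3.43% of all genes). The median was −1.68 with median centring (1.26 below that of all genes) and −1.09 with the authors' table, and in Cy3 alone all 9 were lower with a median of −0.72 and 7 called (4.36% of all genes). Their mean relative to control was −0.18 to 0.12 in the control group and −0.16, −0.26, −1.0 and −0.25 on cold arrays 1 to 4. Cold array 3, with the highest level of the members, had the lowest T cell level. B cell markers were lower in 6 of 7 (median −0.26), dendritic cell markers in 3 of 4 (−0.43) and erythroid markers in 4 of 5 (−0.35), with medians in Cy3 alone of −0.58, −0.25 and −1.37 and with median centring of −0.99, −1.04 and −1.24 in the same order. NK and cytotoxic markers had a median of 0.06 that turned below 0 in 4 of the 5 other scalings. The part of other cells in the members' differences was not tested.

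**Figure D5:**
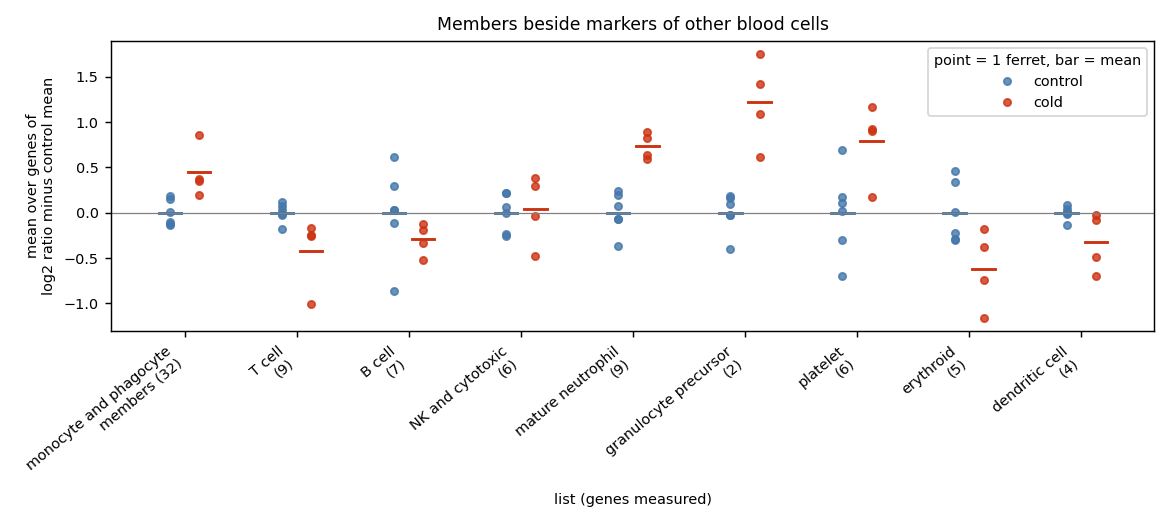
Mean over the measured genes of a list (number in parentheses) of the log2 ratio minus its control mean, with 1 point per ferret (control blue, cold red) and a bar at the group mean. The members range from 0.20 to 0.85 in cold, the neutrophil list from 0.59 to 0.89 and the T cell list from −1.0 to −0.16, with loess-normalised ratios, and with median centring the medians of the members and of the neutrophil list fall below 0 (−0.38 and −0.01). The median of all genes is −0.43 with that centring.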

How the data were processed

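PBMC RNA of 6 control and 4 cold ferrets was hybridised to custom Agilent arrays with 2 colours, 1 array for each of the 10 ferrets, on 10 slides scanned on 1 day. The authors deposited the spot intensities of both channels from Agilent Feature Extraction 10.7.3.1 (named in the submitters' processing notes), as median brightness and local background without normalization, and log2 values of the target sequences in a further table. There a value tracks log2 Cy3 minus log2 Cy5, and its scale and direction follow from the intensities, while the centring per array and per sequence is unknown (column medians from 7.86 to 8.78).

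Intensities were background-corrected (normexp, offset 50, all spots) and the Cy3 to Cy5 ratio, in log2, was loess-normalised array by array (span 0.3, 4 iterations) with limma 3.58.1 under R 4.3.3. Control spots and outlier flags were left out, and spots were averaged per probe and probes per gene. Probes passed if, on 4 or more arrays, a share of 0.5 or more of their spots was well above background in Cy3. This left 111051 of 181312 probes, and 26303 genes were tested, of which 9276 had a symbol. A further 2 genes with a missing value were left out. Symbols came from the RefSeq table of assembly ASM1176430v1.1, which named 21104 of 45328 target sequences. No coordinates are given, since the probes were not placed on that assembly. The share of spots above background on an array was 50.4 to 63.5% in Cy3 and 27.0 to 64.0% in Cy5. The correlation between arrays over all genes was 0.84 to 0.94 within control, 0.87 to 0.92 within cold and 0.76 to 0.93 between the groups.

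Cold was tested against control by lmFit and eBayes of limma over all genes with Benjamini-Hochberg adjustment at 0.05, and a gene is named as called at an unadjusted 0.01 in limma, the threshold that the methods use with another test. Single members also had an exact two-sided permutation test over the 210 splits of the arrays. The number of arrays limits the precision. On data simulated from the gene means and spreads of these arrays, 93.5% of 200 genes with a log2 change of 1 were recovered at an unadjusted 0.01 and 82.0% at an adjusted 0.05. The simulated noise was independent for each gene and array, without the differences that many genes share on an array. These shares therefore do not measure the power of the real arrays, where 0 of 26303 genes passed the adjusted threshold.

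The members, role groups and marker and pathway lists were chosen with earlier results of these data known, and the lists have no test of their own. Per-array values are given for members called or without overlap, for the markers CD14, CSF1R, LYZ, VCAN, CD163, CX3CR1 and CCR2 (FCN1 was also planned and had no match), and for the highest and lowest change. MS4A7, SCARF1 (named through a gene table of the study) and the neutrophil genes LCN2 and MMP25 were added after their values were seen. Of other pathway genes those called are named, apart from some that enter the counts and are not reported here, and ITGB2, C5AR2, TLR2, RAC2, IL34, IL10 and C5 were added after their values were seen. Alternatives were the scanner's processed signals, no background subtraction, median centring, Cy3 alone, the deposited log2 table, other filters and probe summaries, the methods' t-test, array weights, blocks for slide position and replicate number, and leaving out each array.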

Additional observations from a re-analysis of the deposited data

Results flagged for a closer look

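Over the 32 members and both groups, 64 sets of arrays were examined for an array that stood apart from the rest of its group, and 2 were found, both for CD300E. Chance alone gives about 1 in 20 such sets. In the control group CD300E had a log2 ratio of 0.92 on control 5, where the nearest control array had 0.41. In the cold group it had 1.43 on cold 3, where the nearest cold array had 0.89. Control 5 and cold 3 were also the arrays with the highest mean over the members in their groups, 0.19 and 0.85 relative to the control mean.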

How the results depend on the processing

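Over all alternatives, 613 of 735 single-member values kept their direction and their side of the unadjusted 0.01, 48 passed it in addition, 35 dropped below it and 39 changed direction. The count of members called higher (9) was 3 with the scanner's processed signals (2.43% of all genes), 1 with median centring (0.817%), 3 with the authors' table (1.92%), 14 with array weights (5.75%) and 15 with slide position as a block (4.92%). It ranged from 6 (without cold 3, 3.03%) to 14 (without control 5, 5.56%) over the fits that left out an array. The count called lower (0) was 2 with Cy3 alone (4.36%), 1 with no filter on dim probes (2.91%) and 1 with SCARF1 included, a choice made after seeing the data, and 0 in each fit that left out an array. The members' median (0.48) was −0.38 with median centring and 0.15 with the authors' table, and 0.34 (without cold 3) to 0.56 (without cold 1) over the fits that left out an array. At an adjusted limma p of 0.05, CD300E (0.0413), VCAN (0.0491), NCF4 (0.0445) and CD86 (0.0487) passed without control 5, as did 2.41% of all genes, and CSF2RA (0.0145) and CD86 (0.0499) without cold 2, as did 4.84% of all genes. The cause of these shifts was not tested.

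With median centring the median change of all genes was itself −0.43, and 18 of the 32 members, some of those listed next among them, lay above it. Members that changed direction with median centring were AIF1 (−0.23), C5AR1 (−0.41), CD14 (−0.36), CD68 (−0.46), CEBPD (−0.31), CLEC12A (−0.48), CSF1R (−0.74), CSF2RB (−0.12), FCER1G (−0.86), FGR (−0.75), IL10RA (−0.56), LYZ (−0.56), MS4A7 (−0.73), NCF4 (−0.40), PILRA (−0.81), SIRPA (−0.29), SPI1 (−0.86) and TREM1 (−0.68). With the authors' table they were CSF1R (−0.21), CX3CR1 (0.33), FCER1G (−0.24), FGR (−0.20), IL10RA (−0.10), MS4A7 (−0.34), PILRA (−0.25), SPI1 (−0.29) and TREM1 (−0.21). CD163 and MS4A7 changed direction with the processed signals (0.45 and −0.30) and with Cy3 alone (0.49 and −0.21). CX3CR1, at −0.05, turned to 0.0377 with array weights and 0.0037 with slide position as a block, and ranged from −0.13 (without control 3) to 0.0528 (without control 4) when an array was left out. MS4A7 ranged from −0.37 (without cold 3) to 0.80 (without cold 4).

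The labels number the arrays of both groups, but the same-numbered arrays did not deviate together (r of their deviations from the group means −0.30, 0.54, 0.10 and −0.19 for numbers 1 to 4), so they share only a number. With the replicate block, 14 members were called higher (5.12% of all genes) and 0 lower (4.23%), the median was 0.52, and CX3CR1 turned to 0.0387. No cold array correlated best with the control of its own number. A dim reference limits the ratios of CSF2RA, CCR2, CD300E and CEBPB.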
